A study of Homo sapiens with 28 samples.

Results

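The comparison asked whether the change in RNA levels that followed Palbociclib in HCT116 xenograft tumors was also found in cell cultures explanted from such tumors. For every gene, the log2 change between Palbociclib and control cultures was subtracted from the log2 change between Palbociclib and control tumors. A negative difference therefore means that a gene fell more, or rose less, in the tumors than in the cultures. The comparison used 14 of the 28 libraries of the study and all 58278 genes counted, of which 14950 had enough counts to be tested.

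HCT116 is a human colorectal carcinoma line, here carrying luciferase and GFP reporters, and it was injected under the skin of 5-week-old male NOD-SCID mice, which lack functional T and B cells. The 4 groups shared this line and host and were labelled in vivo Control (3 tumors), in vivo Palbociclib (5 tumors), ex vivo Control (3 cultures) and ex vivo Palbociclib (3 cultures). Mice received Palbociclib by mouth at 100 mg/kg per day, or vehicle, for 23 days. The ex vivo libraries came from separate monolayer cultures, each started from a tumor of a mouse on that treatment, and the methods state that these lines were cultured without any drug. Which tumor gave which culture was not given in the sources used here. The loss of the drug, the move to plastic and the expansion of cells cannot be told apart in this design, and a lasting drug effect in the cultures would be one that stayed after all of them.

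Palbociclib inhibits CDK4 and CDK6, the kinases that, with D-type cyclins, phosphorylate the retinoblastoma protein and so release E2F factors to switch on the genes of S phase. Genes of G2 and mitosis are switched on later by B-MYB and FOXM1 and are held off in resting cells by the DREAM complex, which binds a short promoter element called the cell cycle genes homology region (CHR). When CDK4 and CDK6 are inhibited, sensitive cells stop in G1 and transcripts of both gene classes decline, and this block is in general reversible once the inhibitor is gone.

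Total counts ranged from 6273834 to 13815675 per library. Among pairs of libraries of a group, none differed by as little as sampling noise. The libraries ex vivo Control 2 and in vivo Palbociclib 2 stood apart from their groups in how counts followed the GC content of genes. The change in log2 CPM (counts relative to the scaled library total) per SD of GC content, relative to the mean of the same setting, was -0.0558 in ex vivo Control 2 against 0.161 and 0.191 in the other control cultures, and -0.115 to -0.086 in the Palbociclib cultures. It was -0.176 in in vivo Palbociclib 2 against 0.0392 to 0.0848 in the other Palbociclib tumors, and -0.0251 to -0.0151 in the control tumors. The trend thus moved with treatment in the cultures. Trends on GC content and gene length were also removed from each library in a further fit (the GC and length correction). Of the 65 named genes called in the difference, 14 lost that call with it, and those named below are marked where they are described. Keratins 8, 18 and 19, EPCAM and CDH1 were abundant in all 14 libraries, while the intestinal markers CDH17 and LGALS4 were at or near 0 and VIL1 was at 5.59 CPM or less. The summed level of 16 stromal markers was 375 to 418 CPM in control tumors, 301 to 465 CPM in Palbociclib tumors and 37.9 to 61.9 CPM in the cultures. The only genome build named for the counts is the human hg38, and how many tumor reads came from the mouse host was not tested.

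The effect of Palbociclib differed between tumors and cultures for 456 genes. In edgeR's quasi-likelihood test, 174 genes (1.16% of those tested) had a higher effect in tumors and 282 genes (1.89%) a lower effect, at a Benjamini-Hochberg adjusted p under 0.05. In the tumors themselves, 273 genes (1.83%) were higher and 442 genes (2.96%) lower after Palbociclib. In the cultures, 0 genes (0%) were higher and 0 genes (0%) lower, with 2414 genes at an unadjusted p under 0.05 and a smallest adjusted p of 0.128. DESeq2 called 9 genes higher and 206 lower in the cultures, and limma voom with sample weights called 598 and 1003. Without ex vivo Control 2, edgeR called 183 genes higher and 829 lower in the cultures, and the genes called in the difference rose to 777 higher and 723 lower. Without in vivo Palbociclib 2, the difference held 746 genes higher and 572 lower, and the cultures 5 and 223. The counts thus depended on these 2 libraries, and leaving out any 1 of the other 12 gave 42 to 129 genes higher and 137 to 274 lower in the difference, the fewest without ex vivo Control 3. The median SE of a log2 change was 0.161 in tumors, 0.186 in cultures and 0.247 for their difference.

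The tumor and culture libraries are not shared, so the sign of the culture effect is a separate measurement for genes called in tumors. Of the 442 genes that fell in tumors, 114 (25.8%) had a negative culture effect and 328 a positive one, and their median log2 change was -0.6 in tumors and 0.12 in cultures. After the GC and length correction of the cultures, 175 of these 442 genes (39.6%) were negative. Of the 273 genes that rose in tumors, 149 (54.6%) had a positive culture effect, with medians of 0.56 and 0.017. With the correction this was 128 genes (46.9%). Over all genes tested, 46.3% had the same sign in both settings, or 48.3% with the correction. The 95% interval of the culture effect excluded the tumor estimate for 409 of the 442 genes that fell in tumors and for 235 of the 273 that rose. Over all genes tested it did so for 4861 of 14950. The genes called in tumors were picked by their tumor change, and the error of the tumor estimates was not counted here. In the plot of the effects in the cultures against those in the tumors, the cell cycle genes lie to the left, close to a culture effect of 0.

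**Figure D1:**
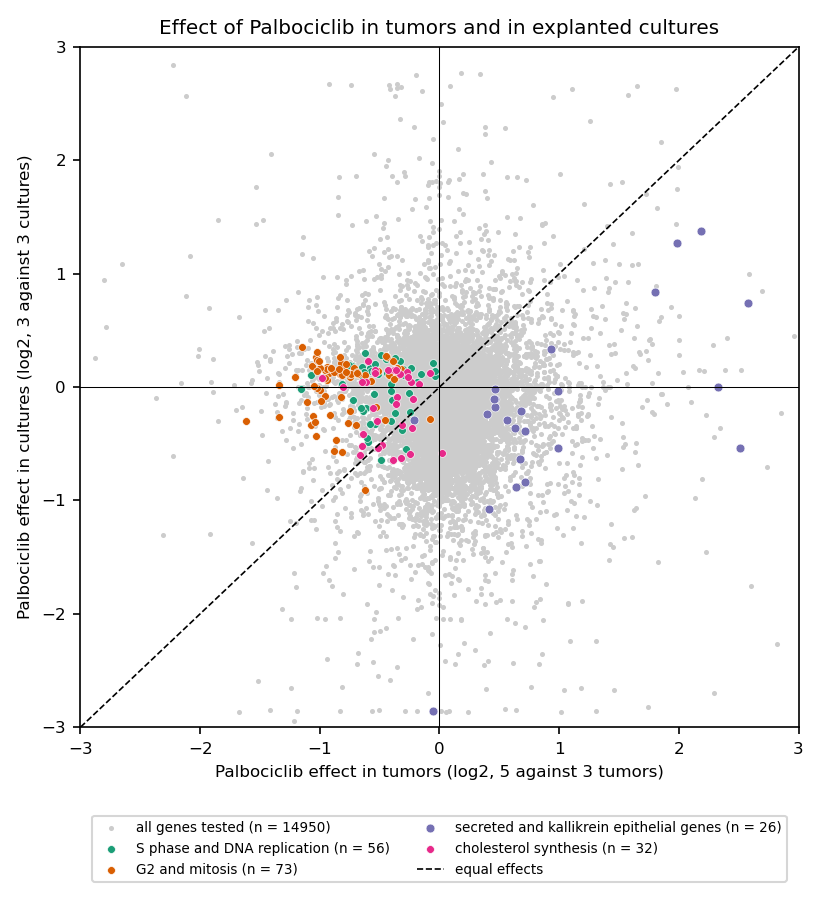
Each point is a gene, with its log2 change after Palbociclib in tumors on the x axis and in cultures on the y axis, and the dashed line marks equal effects. The 73 G2 and mitosis genes have a median of -0.84 in tumors and 0.11 in cultures. 114 of the 14950 genes lie outside the axis limits of 3.

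Genes of G2 and mitosis gave the clearest difference. Of 73 list members tested, 51 had a lower effect in tumors than in cultures and 0 a higher one, with a median difference of -0.88 against 0.012 over all genes tested. In tumors 67 of the 73 fell, with a median log2 change of -0.84. In cultures none was called, the median was 0.11, and 50 of the 73 were positive. The lower bound of the culture interval lay above the tumor estimate for 65 of the 73 members, and for 2330 of all 14950 genes tested. After the GC and length correction, 56 members had a lower effect and the culture median was 0.021, and leaving out each library in turn gave 38 to 59 members. Without ex vivo Control 2, 1 member was called higher and 2 lower in the cultures.

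The promoters of these genes are shown because the control elements named above can be read in them. RefSeq promoters (GRCh38.p14, from 250 bases before to 50 after the transcription start) were matched by symbol for 62 of the 73 G2 and mitosis genes and 49 of the 56 S phase genes. The CHR letters TTTGAA, read on both strands, were present in 42 of the 62 G2 and mitosis promoters (67.7%), in 2 of the 49 S phase promoters (4.08%) and in 15.2% of all 35116 promoters. For genes tested here the share was 9.52%. Among the 42 matched G2 and mitosis genes with a lower effect in tumors, 30 (71.4%) held them. The E2F letters TTTCCCGC and TTTGGCGC, and GCGGGAAA, which is TTTCCCGC on the other strand, were present in 20 S phase promoters (40.8%), 2 G2 and mitosis promoters (3.23%) and 2.27% of all promoters. A match describes the letters only. Of the called genes with letters in the 130 bases before the start, the 4 of G2 and mitosis and the 2 of S phase with the lowest p are printed, 5′ to 3′ in the direction of the gene, with the CHR letters (either strand) or, for TYMS and PCNA, the E2F letters in capitals.
NCAPG: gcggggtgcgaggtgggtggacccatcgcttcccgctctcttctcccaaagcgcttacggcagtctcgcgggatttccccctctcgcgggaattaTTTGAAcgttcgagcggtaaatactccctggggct
MKI67: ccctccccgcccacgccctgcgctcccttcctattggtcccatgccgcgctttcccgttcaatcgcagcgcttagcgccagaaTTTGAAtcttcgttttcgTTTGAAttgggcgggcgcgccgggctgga
PRC1: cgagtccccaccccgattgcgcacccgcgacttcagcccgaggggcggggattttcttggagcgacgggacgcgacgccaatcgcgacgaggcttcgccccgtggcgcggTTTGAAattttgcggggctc
CCNB2: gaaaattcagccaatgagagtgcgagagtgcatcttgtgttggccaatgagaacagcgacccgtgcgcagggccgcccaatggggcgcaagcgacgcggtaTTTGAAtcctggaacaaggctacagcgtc
TYMS: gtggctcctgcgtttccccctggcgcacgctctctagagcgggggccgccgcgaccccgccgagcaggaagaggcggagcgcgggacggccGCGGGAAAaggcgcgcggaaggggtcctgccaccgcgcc
PCNA: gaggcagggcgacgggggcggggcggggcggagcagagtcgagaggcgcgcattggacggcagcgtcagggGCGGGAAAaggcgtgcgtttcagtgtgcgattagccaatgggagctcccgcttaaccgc
These stretches lie at chr4:17810849-17810978 (+ strand) for NCAPG, chr10:128126424-128126553 (- strand) for MKI67, chr15:90994536-90994665 (- strand) for PRC1, chr15:59105016-59105145 (+ strand) for CCNB2, chr18:657523-657652 (+ strand) for TYMS and chr20:5126623-5126752 (- strand) for PCNA. Their log2 differences between tumors and cultures were -1.23 for NCAPG, -1.06 for MKI67, -0.91 for PRC1, -0.98 for CCNB2, -0.84 for TYMS and -0.91 for PCNA. In 20 called G2 and mitosis genes the CHR letters fell in the 130 bases before the start, in 15 of them beginning within 60 bases of it.

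NDC80 encodes a subunit of the outer kinetochore that holds microtubules, and it had the lowest p in the comparison (chr18:2571511-2616635, + strand). It was at 44.8, 44.6 and 43.1 CPM in control tumors and at 21.9, 22.2, 21.9, 22.5 and 19.2 CPM in Palbociclib tumors, while it was at 97.2, 102 and 92.4 CPM in control cultures and at 112, 128 and 111 CPM in Palbociclib cultures. The tumor groups did not overlap, and the Palbociclib cultures were all above the control cultures. The log2 change was -1.03 (SE 0.08) in tumors and 0.27 (SE 0.09, adjusted p = 0.185) in cultures, a difference of -1.30 (SE 0.12, edgeR adjusted p = 5.7e-05). With the GC and length correction the culture change was 0.104 (edgeR adjusted p = 0.884) and the difference -1.087 (adjusted p = 0.000129).

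MKI67, which encodes the proliferation antigen Ki-67, was at 429, 513 and 457 CPM in control tumors and at 261, 209, 224, 232 and 200 CPM in Palbociclib tumors. Its cultures were at 810, 856 and 804 CPM without and at 840, 726 and 922 CPM after Palbociclib. The tumor groups were apart and the culture groups overlapped. The difference was -1.06 (SE 0.14, edgeR adjusted p = 0.00054), from -1.05 in tumors and 0.01 in cultures, with a culture interval of -0.21 to 0.23.

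The mitotic kinesin KIF20A was at 87.2 to 96.1 CPM in control tumors and 30.8 to 46.9 CPM in Palbociclib tumors, against 135 to 156 CPM and 146 to 153 CPM in the cultures. Its difference was -1.36 (SE 0.16, edgeR adjusted p = 0.000187), with culture groups that overlapped. HMGB2, a chromatin protein of dividing cells, differed by -1.30, NCAPG, a condensin subunit, by -1.23, NUSAP1, a spindle protein, by -1.17, SPC25, another kinetochore subunit, by -1.50 and CCNB1, cyclin B1, by -1.03. In the tumors these 5 genes fell by 1.21, 1.06, 1.00, 1.15 and 0.82 on the log2 scale. Their culture effects were between 0.09 and 0.35, and none passed the adjusted test. The DNA helicase PIF1 also fell in tumors (-1.62, adjusted p = 0.00152) with a culture value of -0.30 (95% interval -0.90 to 0.30), and its difference of -1.32 did not pass the test (adjusted p = 0.0816) until the GC and length correction (-1.75, adjusted p = 0.0186).

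Genes of S phase followed with a smaller median. Of 56 members, 25 had a lower effect in tumors and 0 a higher one, the median difference was -0.54, and 53 of the 56 differences were negative. In tumors 35 fell, with a median of -0.54, and in cultures none was called and the median was 0.11. The lower culture bound lay above the tumor estimate for 44 members, beside 2330 of all 14950 genes tested. With the GC and length correction 29 members were lower, and leaving out each library in turn gave 17 to 29. Without ex vivo Control 2, 1 member was called higher and 5 lower in the cultures.

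The ribonucleotide reductase subunits, which make the building blocks of DNA, were among the S phase genes with the lowest p. RRM2 was at 324, 339 and 313 CPM in control tumors, at 194, 144, 166, 131 and 134 CPM in Palbociclib tumors, at 714, 828 and 633 CPM in control cultures and at 766, 719 and 857 CPM in Palbociclib cultures. The tumor groups did not overlap and the culture groups did. The difference was -1.18 (SE 0.17, edgeR adjusted p = 0.00101) for RRM2, -0.91 (SE 0.12) for RRM1, -1.09 (SE 0.16) for the primase PRIM1 and -0.74 (SE 0.11) for the interstrand crosslink repair protein FANCI. PRIM1 shares its strand and locus with the more abundant NACA, so its counts are uncertain.

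MCM2, a subunit of the replicative helicase, did not follow that pattern as clearly. It was at 98.5, 108 and 98.8 CPM in control tumors and at 82.5, 60.2, 79.9, 80.7 and 80.4 CPM in Palbociclib tumors, and at 168, 134 and 156 CPM in control cultures and 124, 117 and 131 CPM in Palbociclib cultures. Neither pair of groups overlapped. The change was -0.40 in tumors (adjusted p = 0.0217) and -0.29 in cultures (95% interval -0.53 to -0.06, adjusted p = 0.224), a difference of -0.11 (95% interval -0.42 to 0.20). After the GC and length correction the culture value was 0.026 and the difference -0.447 (adjusted p = 0.0155), so the like change of both settings depended on that step.

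Among 24 genes of the drug targets and of G1 control, 1 had a higher and 6 a lower effect in tumors, with a median difference of -0.28. The higher one was CCND1, cyclin D1, the partner that activates CDK4 and CDK6 (chr11, 91046 counts over the 14 libraries). CCND1 was at 487, 501 and 494 CPM in control tumors, at 1000, 951, 871, 964 and 996 CPM in Palbociclib tumors, at 708, 759 and 679 CPM in control cultures and at 697, 581 and 791 CPM in Palbociclib cultures. All treated tumors were above all other libraries, and the culture groups overlapped. The change was 0.96 (SE 0.09) in tumors and -0.05 (95% interval -0.25 to 0.15) in cultures, a difference of 1.01 (SE 0.13, edgeR adjusted p = 0.000448).

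CCNE2, cyclin E2, was at 25.2, 21.9 and 26.6 CPM in control tumors, at 9.19, 10.2, 6.04, 7.69 and 10.2 CPM in Palbociclib tumors, at 43.9, 50.2 and 41.8 CPM in control cultures and at 52.1, 44.1 and 58.7 CPM in Palbociclib cultures. Its difference was -1.71 (SE 0.22, edgeR adjusted p = 0.000424), and the tumor groups were apart while the culture groups overlapped. CCNE2 shares its locus on the other strand with the more abundant INTS8. The atypical repressors E2F7 and E2F8, themselves E2F targets, differed by -0.92 (SE 0.17) and -1.25 (SE 0.22), and their culture effects were both -0.06. CDKN2C, the inhibitor p18 of CDK4 and CDK6, differed by -1.95 (SE 0.40, adjusted p = 0.0122), from 5.59 to 6.74 CPM in control tumors to 1.5 to 3.64 CPM in Palbociclib tumors. The other 2 called members were the pocket protein RBL1 (-0.72) and the kinase inhibitor CDKN1B (-0.63).

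The direct targets and the retinoblastoma protein did not pass the test. CDK4 changed by -0.09 in tumors and -0.11 in cultures, a difference of 0.02 (95% interval -0.24 to 0.28). CDK6 differed by 0.54 (95% interval -0.15 to 1.23), CCNE1 by 0.38 (-0.06 to 0.81) and RB1 by -0.43 (-0.71 to -0.14, adjusted p = 0.0936). CDK6 was at 12.9, 37.8 and 17.7 CPM in control tumors, 33.9 to 39 CPM in Palbociclib tumors and 104 to 170 CPM in the cultures. CDKN1A, the inhibitor p21, was at 140 to 155 CPM in control tumors, 95.6 to 132 CPM in Palbociclib tumors, 110 to 141 CPM in control cultures and 90.8 to 106 CPM in Palbociclib cultures. The treated libraries were below the controls in both settings without overlap, but neither change passed the test (adjusted p = 0.098 in tumors and 0.168 in cultures). The difference was 0.09 (95% interval -0.23 to 0.42). With the GC and length correction the tumor change passed (-0.328, adjusted p = 0.0045), the culture change was -0.104 (adjusted p = 0.877) and the difference -0.225. Of the 39 p53 targets tested, 0 were called in the difference by edgeR, with 6 at an unadjusted p under 0.05 and a median of 0.00095, while DESeq2 called 2 lower and limma voom 1 higher and 4 lower.

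Genes of secreted and kallikrein epithelial products had a higher median in tumors than in cultures. This list, like the others, was chosen with earlier results of these data known, so its counts are description and no separate support. Of 26 members tested of 44 listed, 8 had a higher effect in tumors and 0 a lower one, and the median difference was 0.98. In tumors 12 rose (5 without in vivo Control 1 and 7 without in vivo Control 3), with a median of 0.68, and in cultures none was called and the median was -0.23. After the GC and length correction 5 members were called and the culture median was -0.046, and leaving out each library in turn gave 1 to 11. The fewest were called without ex vivo Control 3 and the most without ex vivo Control 2 or in vivo Palbociclib 2, and without ex vivo Control 1 or ex vivo Palbociclib 1 there were 2. There were 3 without ex vivo Palbociclib 3, in vivo Control 1 or in vivo Control 3, 4 without in vivo Control 2 or in vivo Palbociclib 5 and 5 without in vivo Palbociclib 4.

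LCN2, lipocalin 2, a secreted iron carrier of stressed epithelium, had the most marked rise of this list in tumors among called members. It was at 2.57, 2.85 and 3.81 CPM in control tumors, at 21.1, 12.8, 17.7, 23.5 and 16.4 CPM in Palbociclib tumors, at 1.69, 2.15 and 2.3 CPM in control cultures and at 3.67, 3.8 and 2.9 CPM in Palbociclib cultures. The treated libraries were above the controls in both settings without overlap. The change was 2.58 (SE 0.24) in tumors and 0.74 (95% interval 0.12 to 1.36, unadjusted p = 0.0221, adjusted p = 0.241) in cultures. The difference was 1.84 (SE 0.38, edgeR adjusted p = 0.0127), so the culture change, if present, was smaller than that of the tumors.

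The kallikreins are secreted serine proteases encoded side by side on chromosome 19. KLK10 was at 23.2, 22.8 and 19.2 CPM in control tumors, at 41.7, 41.9, 36, 48.3 and 48.5 CPM in Palbociclib tumors, at 12.4, 10.8 and 14.4 CPM in control cultures and at 6.7, 6.42 and 11.9 CPM in Palbociclib cultures. The tumor groups were apart and the culture groups overlapped, and the difference was 1.53 (SE 0.27, edgeR adjusted p = 0.00447). KLK6 differed by 1.10, KLK7 by 1.02 and KLK8 by 1.31, of which KLK8 was not called in the tumors (0.67, adjusted p = 0.066). KLK5 rose in tumors (2.51, SE 0.47, adjusted p = 0.00309), and its difference of 3.04 (SE 0.82) missed the threshold at an adjusted p of 0.0505. Its counts were 13, 3 and 15 in control cultures and 9, 1 and 17 in Palbociclib cultures, so its culture change was poorly determined (-0.54, 95% interval -1.94 to 0.86). The epithelial genes KRT80, S100A14 and S100A6 completed the called members, at 1.00, 0.64 and 0.56. The 5 members called with the GC and length correction included LCN2, KLK10, KRT80 and S100A14. Most of KLK6, KLK7, KLK8 and S100A6 thus lost their calls with it.

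Of 29 inflammatory and senescence-associated secreted factors tested, 5 had a higher effect in tumors and 0 a lower one, with a median difference of 0.44. Without in vivo Palbociclib 2, 9 members were called higher. IGFBP6, a binding protein of insulin-like growth factors, differed by 2.00 (SE 0.35), and it was at 16.9 to 18.3 CPM in control tumors and 33.6 to 62.5 CPM in Palbociclib tumors. The protease PLAU, urokinase, differed by 1.11 (SE 0.23) and TNFAIP2 by 1.03 (SE 0.22). TNFAIP2 was not called in the tumors (0.43, edgeR adjusted p = 0.0932), and its culture change of -0.61 was the larger one. With the GC and length correction this turned around, as its tumor change passed (0.393, edgeR adjusted p = 0.00897) and its culture change was -0.16. Its difference was then 0.554 (adjusted p = 0.0426). TIMP1, an inhibitor of matrix metalloproteinases, differed by 0.85 from a tumor change of 0.14 that was not called. With the GC and length correction 4 members of this list were called in the difference, and TIMP1 was not among them.

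Cholesterol synthesis genes fell in tumors and were less clear in the difference. Of 32 members, 11 fell in tumors (18 with the GC and length correction, 6 without in vivo Control 2 and 7 without in vivo Control 3) and 5 had a lower effect there than in cultures, with a median difference of -0.25 and medians of -0.39 in tumors and -0.043 in cultures. Leaving out each library gave 1 to 11 members in the difference, with 11 without ex vivo Control 2, 9 without in vivo Palbociclib 2, 3 without ex vivo Control 1 or in vivo Control 1, and 1 without ex vivo Control 3, ex vivo Palbociclib 1 or 3, or in vivo Control 2 or 3. The named members were ACAT2 (-1.06, SE 0.24), HMGCS1 (-0.83, SE 0.20), FDFT1 (-0.66, SE 0.15), which act in the pathway, and the fatty acid desaturase FADS1 (-0.66, SE 0.14). ACAT2 was at 53.3 to 64.1 CPM in control tumors, 22.2 to 36.9 CPM in Palbociclib tumors, 52.1 to 72.4 CPM in control cultures and 53.9 to 80.7 CPM in Palbociclib cultures. It overlaps the more abundant TCP1 on the other strand. HMGCS1 was no longer called after the GC and length correction (-0.638, adjusted p = 0.0673).

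The 13 mitochondrially encoded transcripts all had positive differences, with a median of 0.57, and 1 of them, MT-ND1, a subunit of complex I, was called. MT-ND1 was at 2410, 2280 and 2400 CPM in control tumors, at 3870, 5400, 3110, 3240 and 3710 CPM in Palbociclib tumors, at 3360, 3890 and 4420 CPM in control cultures and at 3420, 3110 and 3950 CPM in Palbociclib cultures. Its difference was 0.87 (SE 0.21, edgeR adjusted p = 0.0346), and the highest value was that of in vivo Palbociclib 2, without which 5 of the 13 were called. Without ex vivo Control 1 there were 2, and without ex vivo Control 3, ex vivo Palbociclib 1 or 2, in vivo Palbociclib 5 or any 1 of the control tumors there were 0. These 13 transcripts come from 1 molecule and are not independent. Of the 50 nuclear genes of the respiratory chain and TCA cycle, 1 was called in the difference, fumarase (FH, -0.61), and the call was lost with the GC and length correction (adjusted p = 0.0546). Without ex vivo Control 2, 4 of the 50 were higher and 2 lower, and without in vivo Palbociclib 2, 4 and 3.

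**Figure D2:**
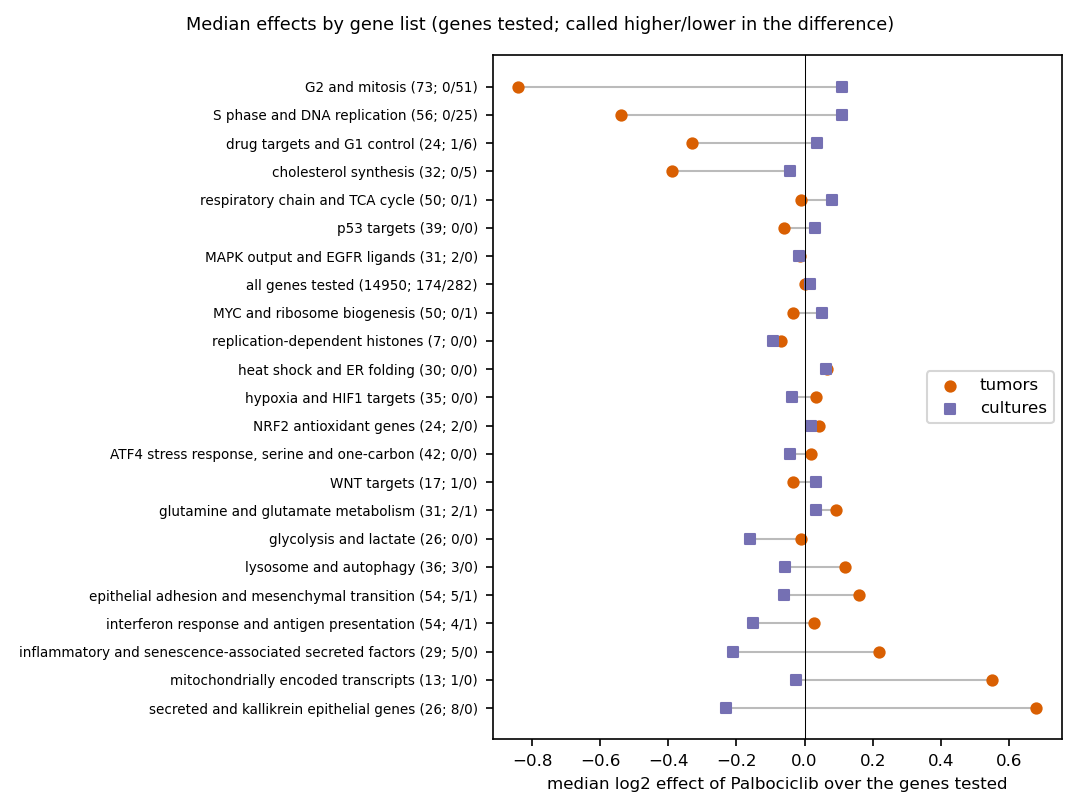
Circles and squares give the median log2 change after Palbociclib over each list's tested genes in tumors and in cultures, with the number tested and the numbers called higher and lower in the difference beside each name. G2 and mitosis has the most negative median in tumors (-0.84) and, of the lists plotted, the secreted and kallikrein list the most positive (0.68), and the culture medians lie between -0.23 and 0.11. The lists were chosen with earlier results of these data known.

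Among the 174 genes with a higher effect, 98 were not called in the tumors themselves. Their median log2 change was 0.3 in tumors and -0.69 in cultures, and for 88 of them the culture change was the larger one. By contrast, 262 of the 282 genes with a lower effect were called in the tumors too. The median GC content was 58.7% for the 98 genes, 53.4% for the 76 genes called in tumors as well, 41.4% for the 282 genes with a lower effect and 48.1% over all genes tested. With the GC and length correction, 88 of the 174 higher genes and 200 of the 282 lower genes were still called. The part of the GC trend in the remaining calls was not tested further.

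LOXL1, a lysyl oxidase of collagen and elastin, was the named gene of this kind with the lowest p. It was at 1.82, 2.82 and 2.15 CPM in control cultures and at 0.506, 0.584 and 0.497 CPM in Palbociclib cultures, from 14, 21 and 15 against 4, 4 and 6 counts. In tumors it was at 5.27 to 5.91 CPM without and 6.16 to 12.2 CPM after Palbociclib. The groups did not overlap in either setting, and the difference was 2.71 (SE 0.45, edgeR adjusted p = 0.00285), from 0.63 in tumors (adjusted p = 0.164) and -2.08 in cultures (adjusted p = 0.128). LOXL1 shares its locus on the other strand with the more abundant LOXL1-AS1. SLC25A22, the mitochondrial glutamate carrier, differed by 1.68 (SE 0.33) and SLC38A5, an amino acid transporter that carries glutamine, by 1.11 (SE 0.21), again with culture changes (-1.31 and -0.70) larger than those of the tumors (0.38 and 0.42). With the GC and length correction, SLC38A5 was at -0.417 in cultures and 0.403 in tumors, where it then passed (adjusted p = 0.0179), and SLC25A22 at -0.849 and 0.312, and both differences were still called. GLUL, glutamine synthetase, fell in tumors by 0.42 on the log2 scale and differed by -0.40 (SE 0.11), a call that the GC and length correction removed. BSCL2 differed by 2.82 (SE 0.63), but its control cultures were at 12.5, 2.29 and 13.4 CPM, and it lies within the read-through locus HNRNPUL2-BSCL2.

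Among ferritin and keratin genes, FTL, FTH1, KRT18 and KRT8 had a higher effect in tumors, and none passed the test in cultures. FTL, the ferritin light chain, was at 370 to 404 CPM in control tumors and 339 to 575 CPM in Palbociclib tumors, and at 594, 381 and 655 CPM in control cultures and 335, 351 and 325 CPM in Palbociclib cultures. The tumor groups overlapped, the culture groups did not, and the difference was 1.02 (SE 0.23, edgeR adjusted p = 0.0226). FTH1, the heavy chain, rose in tumors (0.58, adjusted p = 0.000158) and differed by 0.45 (SE 0.11). Both have processed copies in the genome, so their counts are uncertain. KRT18 was at 703 to 870 CPM in control tumors, 941 to 1290 CPM in Palbociclib tumors, 424 to 638 CPM in control cultures and 384 to 427 CPM in Palbociclib cultures. The groups did not overlap in tumors and overlapped in cultures, and its difference was 1.03 (SE 0.19, edgeR adjusted p = 0.00535). Its partner KRT8 differed by 0.80 (adjusted p = 0.0486). KRT8 overlaps KRT18 on the other strand with more counts. The epithelial adhesion and mesenchymal transition list, which holds both, had 5 of 54 members higher (16 without ex vivo Control 2, 15 without in vivo Palbociclib 2 and 1 without ex vivo Control 1, ex vivo Control 3 or in vivo Control 1) and 1 lower, with ITGB4, the integrin of hemidesmosomes, at 1.60 (SE 0.38), TPM2 at 0.60, LAMC1 at 0.52 and DSC2 at -0.79. TPM2 and DSC2, the only lower member, lost their calls with the GC and length correction (adjusted p = 0.0759 and 0.0671). ITGB4 and TPM2 were not called in the tumors (0.75 and 0.32, edgeR adjusted p = 0.0808 and 0.0545), and their culture changes were -0.85 and -0.28. With the GC and length correction both tumor changes passed (0.671 and 0.299, edgeR adjusted p = 0.0118 and 0.0139), and the culture changes were -0.357 and -0.082. The summed level of the 8 epithelial markers was 2680 to 3200 CPM in control tumors, 2950 to 4110 CPM in Palbociclib tumors, 1530 to 2020 CPM in control cultures and 1480 to 1540 CPM in Palbociclib cultures. In such bulk libraries, a change in the share of cells and a change in RNA per cell cannot be told apart.

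CPA4, a carboxypeptidase, had the lowest p among the 10 higher genes taken by size of the difference. CPA4 was at 6.31, 6.64 and 9.6 CPM in control tumors, at 32.8, 25.6, 34.7, 30 and 37.3 CPM in Palbociclib tumors, at 28.9, 34.7 and 29 CPM in control cultures and at 29.5, 16.6 and 37.2 CPM in Palbociclib cultures. The treated tumors reached the range of the cultures, and the culture groups overlapped. The difference was 2.23 (SE 0.31, edgeR adjusted p = 0.000829), from 2.10 in tumors and -0.14 in cultures. In the other direction, DHRS2, a short-chain dehydrogenase, differed by -1.72 (SE 0.31), GK, glycerol kinase, by -1.63 (SE 0.36), FAM111B by -1.62 (SE 0.27), TMSB15A, a thymosin with a near-identical copy, by -1.65 (SE 0.43) and LAMA2, a laminin chain, by -1.36 (SE 0.35). LAMA2 was not called in the tumors (-0.64, edgeR adjusted p = 0.161), and its culture change of 0.73 was the larger one. FAM72D differed by -1.35 (SE 0.31), and since near-identical copies of it exist, its counts are uncertain.

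Several of the largest fitted differences rested on few counts in the cultures. CD68, a macrophage marker, had 2, 2 and 16 counts in control cultures and 0, 0 and 1 in Palbociclib cultures, against 7.92 to 12.4 CPM in control tumors and 11.8 to 23.6 CPM in Palbociclib tumors, and its tumor groups overlapped. HLA-DRB1 had 4, 8 and 8 counts in control cultures and 0, 0 and 2 in Palbociclib cultures. OAS2, an interferon-induced antiviral enzyme, had 1, 2 and 4 counts in control cultures and 0, 1 and 0 in Palbociclib cultures. These 3 genes were called in the difference, but fitted values at such counts depend on the prior count and are no bound on the fold. OAS2 rose in tumors (1.45, SE 0.31, adjusted p = 0.00806) from 3.59 to 5.04 CPM to 6.24 to 13.9 CPM, without overlap. C3, complement component 3, rose in tumors too (1.62, SE 0.22) from 6.64 to 8.61 CPM to 18.3 to 34.6 CPM, with 5 to 10 and 2 to 7 counts in the cultures. C3 shares its strand and locus with the more abundant GPR108, so its counts are uncertain. ACVRL1, S100A1 and BATF2 had 13 or fewer counts in every culture, and S100A1 and BATF2 lost their calls with the GC and length correction (adjusted p = 0.0801 and 0.0984). S100A1 overlaps the more abundant S100A13 on the other strand. The 14 macrophage markers summed to 15.9 to 21 CPM in control tumors, 23.1 to 32.5 CPM in Palbociclib tumors and 0.673 to 3.3 CPM in the cultures, with TYROBP and the 3 C1Q genes at 0 in all of them. Of the 3 markers tested, 2 had a positive tumor change and 1 a negative one, and none was called in tumors. CSF1R was at 2.57 to 4.85 CPM in control tumors and 0.961 to 2.7 CPM in Palbociclib tumors. The part of such cells, or of reads from the mouse host, in these results was not tested.

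Of 54 interferon response and antigen presentation genes, 4 had a higher effect in tumors and 1 a lower one, with a median difference of 0.28 beside 0.012 over all genes tested. Leaving out each library gave 0 to 6 higher members, with 6 without in vivo Palbociclib 2, and 0 without ex vivo Control 3, ex vivo Palbociclib 1 or 3, or any 1 of the control tumors. Besides OAS2, the higher ones included HLA-E (0.68, SE 0.16) and HLA-B (0.47, SE 0.12), which present antigens on the cell surface, and neither passed the test in the tumors themselves. HLA-B lost its call with the GC and length correction, at an adjusted p of 0.657, and the sequence likeness of these genes makes their counts uncertain. HLA-E was at 231 to 235 CPM in control tumors, 235 to 279 CPM in Palbociclib tumors, 44 to 66.1 CPM in control cultures and 38.1 to 43.8 CPM in Palbociclib cultures. Its culture groups did not overlap, and its tumor groups met at 235 CPM. The lower one was HERC5, an ISG15 ligase, which fell in tumors (-0.47, adjusted p = 0.0072) and differed by -0.75 (SE 0.16).

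The remaining lists held few calls. In the difference, 3 of 36 lysosome and autophagy genes were higher, namely the lysosomal proteins CTSD, PSAP and CTSA, which all lost their calls after the GC and length correction, where 3 other members were called. Leaving out each library gave 0 to 7 lysosome genes, with 6 without ex vivo Control 2, 7 without in vivo Palbociclib 2 and 2 or fewer without any other. Of 31 genes of MAPK output and EGFR ligands, CCND1 and the phosphatase DUSP4 (0.66, SE 0.17) were higher, but DUSP4 lost its call with the correction (adjusted p = 0.0852), and this list held 4 genes without ex vivo Control 2 or in vivo Palbociclib 2. CCND1 was also the only one of 17 WNT targets called. The iron importer TFRC (-0.67, SE 0.17) was the only one of 50 MYC and ribosome biogenesis genes called, and it lost its call with the correction (-0.505, adjusted p = 0.0541). That list held 6 higher and 4 lower genes without ex vivo Control 2, 6 and 3 without in vivo Palbociclib 2, 0 higher and at most 1 lower without any other library, and 9 and 6 in limma voom. Of 24 NRF2 antioxidant genes, FTL and FTH1 were called, with 0 to 3 when a library was left out, 3 of them without in vivo Palbociclib 2 and 0 without ex vivo Control 1 or 3, ex vivo Palbociclib 1 or 3 or any 1 of the control tumors. Hypoxia targets (35 tested), glycolysis (26), the ATF4 response (42), heat shock and folding (30) and replication-dependent histones (7) held 0 calls in the difference in edgeR's test. At an unadjusted p under 0.05 they held 4, 6, 6, 8 and 1 genes in that order. DESeq2 called 1 gene higher in each of the first 4 lists and 0 histones, and limma voom called 2, 8, 4, 5 and 0 higher. Leaving out a library gave calls in the first 4 lists without ex vivo Control 2 (1, 2, 4 and 3 higher) and without in vivo Palbociclib 2 (2, 4, 2 and 2), and without any other gave 0. CALB1 and GJA1 changed in tumors (2.19 and -1.93, adjusted p = 0.0493 and 0.0248) but had 0 to 15 counts in the cultures, and their differences of 0.81 (95% interval -1.69 to 3.32) and -2.63 (-6.01 to 0.75) could not be determined at this depth.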

How the data were processed

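RNA sequencing of poly(A) RNA had been done on 28 libraries, and 14 of them, without Telaglenastat, entered the comparison. The submitters' processing notes name CASAVA 1.8, STAR and hg38. The deposited table holds raw read counts per gene, which the authors made with STAR. The libraries marked strand by uracil in the second cDNA strand, and whether the counts used strand was not given in the sources used here. Every column of the table matched a sample, so 0 columns were set aside. Of 58278 gene IDs, 57940 matched GENCODE 29, from which positions, gene types, GC content and lengths were taken, and no row named anything other than a gene.

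Counts were filtered with filterByExpr (minimum count 10), scaled by TMM and fitted as 4 group means with edgeR 4.0.16 (limma 3.58.1, R 4.3.3) by the quasi-likelihood F-test, with 10 residual degrees of freedom. One contrast gave the difference of differences, and 2 gave the tumor and culture effects. P-values were two-sided and adjusted by Benjamini-Hochberg over all 14950 genes, with a threshold of 0.05, and intervals are 95%. CPM values use the TMM-scaled library sizes. Telaglenastat libraries were left out of the fit because, in earlier results of these data, they stood apart in how counts follow GC content. Alternatives were DESeq2 1.42.0, limma voom with sample weights, DESeq2's size factors, 2 filters, all 28 libraries, separate fits, protein-coding genes, a replicate block, spline trends (4 df) on GC content and length as offsets (99.7% of tested genes had both), and each library left out. Fits without the libraries that stood apart were added after seeing the data. The fits were tested on simulated counts. Per the labels and methods, tumors and cultures were separate samples.

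The genes named were up to 10 per direction with the largest difference among called protein-coding genes at a mean log2 CPM of 1 or more, up to 4 called members per list by lowest p, and 14 genes named whatever their values (CDK4, CDK6, CCND1, CCNE1, RB1, CDKN1A, MKI67, CCNB1, MCM2, LCN2, KLK5, CALB1, PIF1, GJA1). Further parts of the rule, for genes called in both settings or in the cultures alone, found 0 genes. Called list members named beyond these, such as PRC1, KLK6 and TIMP1, were added after their values were seen. The comparison and the gene lists were chosen with earlier results of these data known. Values of 2 called genes are not reported here. Of the 75 genes, 32 overlap another gene with at least 10 counts, which has more counts in 8 cases.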

Additional observations from a re-analysis of the deposited data

Results flagged for a closer look

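For 65 of the 75 named genes the effect of Palbociclib was called different between tumors and cultures by the test of the difference itself. Most of them were named because of that call, so their number is no result, and over all genes tested it was 456 of 14950. Of the 65, 14 lost that call with the GC and length correction. The values that follow, for 63 of the 65, are log2 differences, the effect in tumors minus the effect in cultures. Among genes of the cell cycle and DNA replication they were CDKN2C (-1.95), CCNE2 (-1.71), FAM111B (-1.62), SPC25 (-1.50), KIF20A (-1.36), HMGB2 (-1.30), NDC80 (-1.30), E2F8 (-1.25), NCAPG (-1.23), RRM2 (-1.18), NUSAP1 (-1.17), PRIM1 (-1.09), MKI67 (-1.06), CCNB1 (-1.03), E2F7 (-0.92), RRM1 (-0.91) and FANCI (-0.74). Other genes with a lower effect in tumors were DHRS2 (-1.72), TMSB15A (-1.65), GK (-1.63), LAMA2 (-1.36), FAM72D (-1.35), ACAT2 (-1.06), HMGCS1 (-0.83), DSC2 (-0.79), HERC5 (-0.75), TFRC (-0.67), FDFT1 (-0.66), FADS1 (-0.66), FH (-0.61) and GLUL (-0.40). Genes with a higher effect in tumors were BSCL2 (2.82), CPA4 (2.23), IGFBP6 (2.00), LCN2 (1.84), SLC25A22 (1.68), ITGB4 (1.60), KLK10 (1.53), CTSD (1.23), SLC38A5 (1.11), PLAU (1.11), TNFAIP2 (1.03), KRT18 (1.03), FTL (1.02), CCND1 (1.01), KRT80 (1.00), MT-ND1 (0.87), HLA-E (0.68), DUSP4 (0.66), S100A14 (0.64), TPM2 (0.60), CTSA (0.58), PSAP (0.51), HLA-B (0.47) and FTH1 (0.45). For CD68 (4.89), OAS2 (4.13), HLA-DRB1 (3.59), C3 (2.71), LOXL1 (2.71), S100A1 (2.35), ACVRL1 (2.34) and BATF2 (2.18), the cultures held 21 or fewer counts per library, and these fitted values depend on the prior count. BSCL2 had 9 to 21 counts in the Palbociclib cultures.

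In the 5 Palbociclib tumors, 1 library lay far from the other 4 in 7 of 75 genes looked at, where chance gives about 1 in 20. In in vivo Palbociclib 2 these were MCM2 (60.2 CPM), KRT18 (941 CPM), TNFAIP2 (53.7 CPM) and HLA-B (492 CPM), each the lowest of the 5. In in vivo Palbociclib 5 they were TFRC (137 CPM) and NDC80 (19.2 CPM), both the lowest, and in in vivo Palbociclib 1 it was KIF20A (46.9 CPM), the highest. In vivo Palbociclib 2 is the tumor library whose GC trend stood apart.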

How the results depend on the processing

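The difference of differences gave 174 genes higher and 282 lower, and its counts moved by more than 1.5 times in many alternatives. They were 405 and 482 with DESeq2, 1224 and 1226 with limma voom with sample weights, 663 and 470 with no filter, 55 and 160 with all 28 libraries and 691 and 618 with separate fits. With at least 10 counts in every library 270 were higher, and with protein-coding genes 262. The GC and length correction gave 145 and 246. Without the 2 libraries that stand apart, 1713 were higher and 1172 lower, or 286 higher with the correction as well. Leaving out each library gave 42 to 777 higher and 137 to 723 lower.

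For the tumors (273 higher, 442 lower), voom gave 578 and 707. No filter gave 488 higher, all 28 libraries 165, the correction 508, and the correction without ex vivo Control 2, 518. Without both libraries, 472 were higher and 693 lower, or 468 higher with the correction. Leaving out each library gave 126 to 350 and 258 to 487, with 126 without in vivo Control 1, 136 without in vivo Control 2 and 156 without in vivo Control 3.

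For the cultures (0 and 0), DESeq2 gave 9 and 206, voom 598 and 1003, no filter 73 and 551, and omission of both libraries 375 and 1612, or 80 and 105 with the correction. Without ex vivo Control 2 and with the correction there were 10 and 30. Leaving out each library gave 0 to 183 and 0 to 829. Why these settings gave more calls was not tested.

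With a replicate block, the difference held 37 genes higher and 105 lower (40 and 84 with the correction), the tumors 120 and 227, and the cultures 0 and 0. Of the 65 named genes called in the difference, 30 were still called, and 33 of the 73 G2 and mitosis genes and 1 of the 26 secreted and kallikrein genes. Correlations of the deviations of same-numbered samples ran from -0.125 to 0.266, the highest between ex vivo Control 2 and in vivo Palbociclib 2. Pairs with unlike numbers were not compared, so whether same-numbered samples share more than a number was not tested.

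Of the 456 genes called in the difference, those still tested kept their sign in each alternative, except 3 without both libraries with the correction and 1 without ex vivo Control 2 with it. Of the 65 named genes, 64 were still called with DESeq2, 51 with the correction, 31 to 65 with a library left out, and 46 without both libraries with the correction. Counts under about 10 per library, as for CD68 or OAS2 in cultures, left the size of differences undetermined. The call was lost in 17 of 26 alternative fits for OAS2 and for BATF2, and in 10 of 26 for CD68.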

Other observations

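In all 6 cultures the lists of G1 control, S phase, and G2 and mitosis stood above their level in the control tumors, whatever the treatment of the mouse. For G2 and mitosis, the mean log2 CPM was 0.705 to 0.865 above the mean of the control tumors in the cultures and -1.008 to -0.586 in the Palbociclib tumors. The mean log2 CPM of the S phase genes was 0.788 to 1.009 above the mean of the control tumors in the cultures and -0.656 to -0.354 in the Palbociclib tumors. For G1 control it was 0.296 to 0.411 in the cultures and -0.384 to -0.217 in the Palbociclib tumors. For cholesterol synthesis, the cultures were at -0.68 to -0.303 and the Palbociclib tumors at -0.641 to -0.331. The interferon list was at 0.071 to 0.177 in the Palbociclib tumors and at -3.57 to -3.311 in the cultures. The secreted and kallikrein list was at 0.544 to 1.195 in the Palbociclib tumors and at -1.613 to -1.157 in the cultures.

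Of the 282 genes with a lower effect in tumors, 82 (29.1%) belonged to the lists of G1 control, S phase or G2 and mitosis, as did 1.02% of all genes tested, and of the 174 with a higher effect 1 did (0.575%), namely CCND1.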
